A study of Homo sapiens with 8 samples.

Results

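A set of 9 genes that mark or build the lung epithelium was followed on the arrays of a PTK7 knockdown study: the transcription factor genes NKX2-1, FOXA1, FOXA2, GATA6, SOX2 and SOX9, and the lung epithelial products SFTPB, NAPSA and HOPX. They were chosen by name, and each was read from its brightest probe set with a single gene symbol over the 8 arrays, which gave 9 members of 18404 genes measured. Each member had 1 such probe set, so no choice between probe sets was needed. The cells were NCI-H1299 and NCI-H2009, human lung cancer lines, here H1299 and H2009. Every culture, controls included, was infected for 2 days with a lentivirus that makes a short hairpin RNA, kept in puromycin for a further 2 days, and lysed for total RNA on day 4. The hairpin targeted GFP or luciferase (LUC) in the control groups and PTK7, a receptor-like protein kinase family member of the planar cell polarity pathway, in the knockdown groups (PTK7-1 and PTK7-2). Each line by hairpin combination was measured on 1 Affymetrix array, so the 4 groups hold 2 arrays each and the 2 arrays of a group differ in their hairpin. The labels do not say that cultures were repeated, and p-values therefore measure the spread between these arrays, which may be partly technical.

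The branching lung endoderm is marked by NKX2-1, a homeobox protein that later switches on surfactant genes in alveolar type 2 cells and is used as a marker of lung adenocarcinoma. FOXA1 and FOXA2 are forkhead pioneer factors that open chromatin in foregut epithelium, and GATA6 is a zinc finger factor of the same epithelium. SOX2 marks the proximal, airway side of the growing lung and SOX9 its distal tips. SFTPB encodes surfactant protein B, NAPSA the aspartic protease napsin A that processes it, and HOPX a homeodomain-only protein of alveolar type 1 cells and their precursors.

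Promoter windows of 250 bases upstream of a RefSeq start site (GRCh38.p14) were at hand for 7 of the 9 members, 11 windows in all, and FOXA2 and SOX9 had none. The windows were searched on both strands for the forkhead core TGTTTNC, for CTCAAG, a core bound by NKX2-1, and for GCNCTNNAG, the wider form of NKX2-1 sites in surfactant promoters. Of 35116 windows of this length, 15.5% held the forkhead core, 10.4% held CTCAAG and 14.3% held GCNCTNNAG, and matches to the latter pair can overlap. The 3 windows below are shown because NKX2-1 and FOXA1 carried large differences between the lines, and SFTPB, their textbook target, did not. Capitals mark matches to any of the 3 motifs.
NKX2-1, chr14:36519557-36519806, minus strand: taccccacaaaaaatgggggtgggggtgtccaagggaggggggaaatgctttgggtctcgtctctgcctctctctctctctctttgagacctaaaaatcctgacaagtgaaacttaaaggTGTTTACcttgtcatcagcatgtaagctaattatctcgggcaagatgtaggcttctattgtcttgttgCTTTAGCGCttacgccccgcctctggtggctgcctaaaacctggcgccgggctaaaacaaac
FOXA1, chr14:37595250-37595499, minus strand: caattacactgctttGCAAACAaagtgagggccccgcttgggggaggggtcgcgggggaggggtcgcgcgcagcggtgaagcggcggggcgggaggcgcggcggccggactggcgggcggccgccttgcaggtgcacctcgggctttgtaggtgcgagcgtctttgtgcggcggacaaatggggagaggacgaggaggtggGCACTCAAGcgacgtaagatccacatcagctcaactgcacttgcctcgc
SFTPB, chr2:85668200-85668449, minus strand: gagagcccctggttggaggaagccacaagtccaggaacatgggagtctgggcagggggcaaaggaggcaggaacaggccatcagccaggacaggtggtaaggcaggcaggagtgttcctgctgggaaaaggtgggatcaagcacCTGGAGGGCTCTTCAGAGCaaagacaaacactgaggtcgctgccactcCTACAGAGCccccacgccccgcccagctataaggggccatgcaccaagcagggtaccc
The NKX2-1 window, which lies before the more downstream of its starts in the table, held 1 forkhead match, 130 to 124 bases before the start, and 1 match to GCNCTNNAG, 62 to 54 bases before it. The FOXA1 window held 1 forkhead match, 235 to 229 bases before the start, and 1 match to CTCAAG that lies inside a match to GCNCTNNAG. The SFTPB window, also before the more downstream of its starts, held 4 matches to GCNCTNNAG, of which those at 106 to 98, 99 to 91 and 96 to 88 bases before the start overlap and the other lies at 58 to 50. Windows with at least 4 such matches made up 0.0456% of all windows. The cut of 4 was this window's own count, and the motif describes sites of surfactant promoters. The share is therefore a description and no test of the SFTPB window. The window of the other SFTPB start (chr2:85668742-85668991) held 1 match to GCNCTNNAG and 1 forkhead match. Whether a window before a downstream start overlaps a longer transcript was not examined. The SOX2 window (chr3:181711675-181711924) held none of the 3 motifs. A further motif searched, the SOX motif ACAANG, is not marked by capitals and occurred in 30.9% of all windows. It had 1 match in the SOX2 window, 3 in the FOXA1 window, 1 in the NKX2-1 window shown and 0 in the SFTPB window shown. These matches describe letters in a window, and no binding was measured here.

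Expression was read as the log2 value of a probe set, and the median of an array over all its probe sets ran from 5.31 to 5.41. The 2 arrays of a group correlated at r = 0.981 to 0.997 across genes, and 0 pairs of arrays were identical. PTK7 itself, on the log2 scale, read 5.73 under GFP, 6.03 under LUC, 5.63 under PTK7-1 and 5.53 under PTK7-2 in H1299. In H2009 it read 6.64, 6.86, 5.63 and 5.94 in the same order. PTK7 arrays thus lay below control arrays in both lines, by -0.30 ± 0.17 in H1299 and by -0.96 ± 0.17 in H2009 (log2 difference ± SE, limma), and neither difference passed an adjusted p of 0.05 (0.222 in H2009). RNA of whole cultures was measured, so fewer cells that express a gene and less RNA per cell cannot be told apart.

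The lines differed in most of these genes. Averaged over hairpins, 7 of the 9 members passed the threshold between H1299 and H2009 (limma, Benjamini-Hochberg adjusted p below 0.05 over all genes), and 36.2% of all genes did. NKX2-1, FOXA1, FOXA2, SOX2, SOX9 and NAPSA were lower in H1299, a direction called for 16.6% of all genes. GATA6 was higher in H1299, as were 19.6% of all genes. SFTPB and HOPX did not pass. For the same 7 members the 4 arrays of one line did not overlap the 4 of the other, which held for 35.2% of all genes. With such separation the exact two-sided permutation test can give only its smallest p, 0.0286 for 70 arrangements of 4 against 4 arrays, so it adds nothing to the separation, and it does not use the shared hairpins. It gave 0.257 for SFTPB and 0.314 for HOPX. The median difference of the 9 members was -1.003 (log2, H1299 minus H2009), against 0.03 for all genes.

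**Figure D1:**
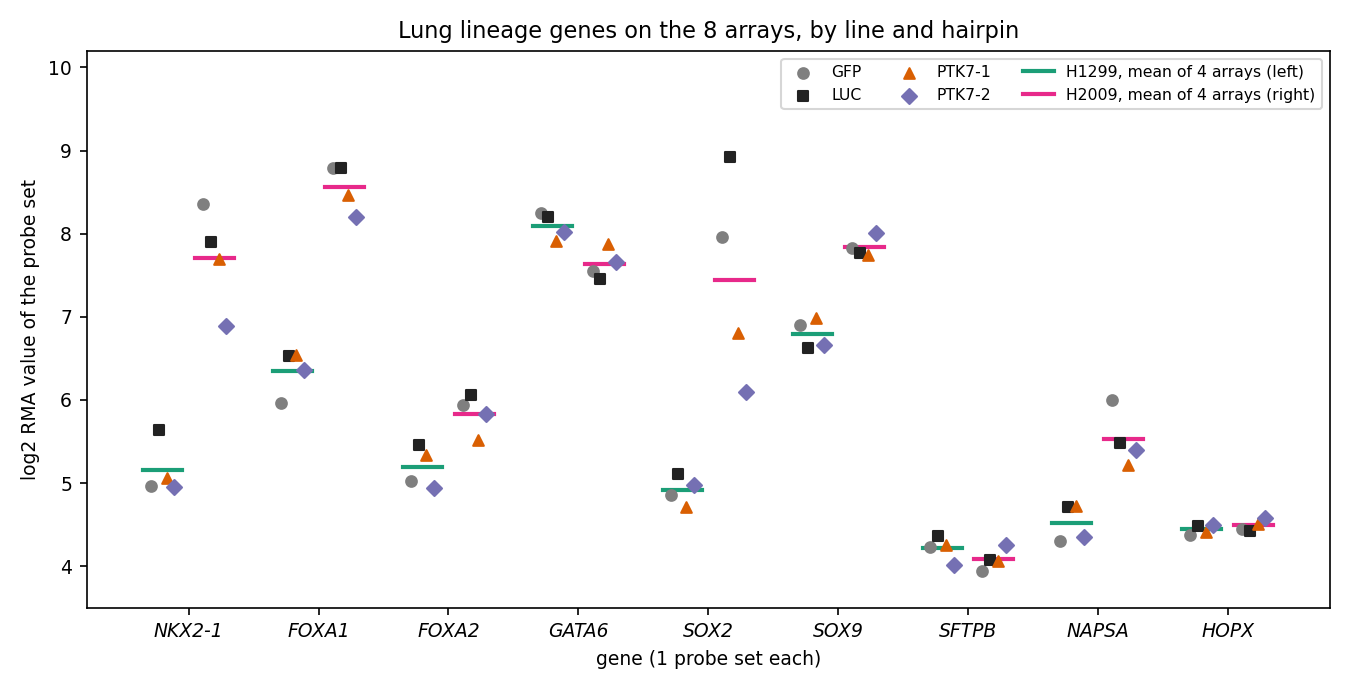
Log2 value of the probe set of each gene (y axis) on the 8 arrays; for each gene (x axis) H1299 arrays stand on the left and H2009 arrays on the right, symbols give the hairpin, and bars give the mean of a line's 4 arrays. NKX2-1, FOXA1 and SOX2 lie apart between the lines, by gaps of 1.25, 1.66 and 0.98 between the nearest arrays, while SFTPB and HOPX stay between 3.94 and 4.58 on all arrays.

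NKX2-1 read 4.96 under GFP, 5.64 under LUC, 5.07 under PTK7-1 and 4.96 under PTK7-2 in H1299. In H2009 it read 8.36, 7.90, 7.70 and 6.89 in the same order. Every H2009 array lay above every H1299 array, and the H2009 arrays spread over a wider range than the H1299 arrays. The averaged difference was -2.56 ± 0.23 (log2 ± SE), or 5.88-fold lower in H1299, with a limma adjusted p of 1.63e-04. Among all genes ranked by brightness, the probe set lay at the 36.5th percentile in H1299 and at the 68.7th in H2009. Such percentiles describe the probe set's signal and not the number of transcripts. Detection in H1299 was not tested, so the NKX2-1 fold is one of signal.

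FOXA1, which shares many binding regions with NKX2-1 in lung cells, read 5.96 under GFP, 6.53 under LUC, 6.54 under PTK7-1 and 6.37 under PTK7-2 in H1299. In H2009 it read 8.79, 8.79, 8.47 and 8.21. The lines stood apart with the widest gap between nearest arrays of any member, 1.66. The difference of -2.22 ± 0.14 (4.64-fold lower in H1299) had the smallest adjusted p of the members, 3.47e-05. Its close relative FOXA2 read 5.03, 5.46, 5.34 and 4.94 in H1299 and 5.94, 6.05, 5.52 and 5.83 in H2009. The highest H1299 array and the lowest H2009 array of FOXA2 were 0.06 apart. FOXA2 differed by -0.65 ± 0.15 (1.56-fold, adjusted p = 0.0124), and this call was lost without the LUC array of H2009 (-0.62, adjusted p = 0.0533).

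GATA6 ran the other way. It read 8.24, 8.20, 7.91 and 8.02 in H1299 and 7.55, 7.46, 7.88 and 7.66 in H2009, in the hairpin order given above. The PTK7-1 arrays of the lines were the nearest pair, 0.04 apart, and the control arrays were the farthest apart. GATA6 was higher in H1299 by 0.46 ± 0.09 (1.37-fold, adjusted p = 0.0062).

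SOX2 read 4.85 under GFP, 5.12 under LUC, 4.71 under PTK7-1 and 4.98 under PTK7-2 in H1299. In H2009 it read 7.96, 8.92, 6.81 and 6.09. The H1299 arrays kept between 4.71 and 5.12, and the H2009 arrays, all higher, had the widest spread of any member (SD 1.25, n = 4, against 0.17 in H1299). The averaged difference was -2.53 ± 0.25, or 5.78-fold lower in H1299 (adjusted p = 2.43e-04). The SOX2 probe set lay at the 33.3rd brightness percentile in H1299, so its folds between the lines are folds of signal. SOX9 read 6.90, 6.63, 6.99 and 6.66 in H1299 and 7.83, 7.76, 7.74 and 8.00 in H2009. Its lines were separated with little spread inside either, and the difference of -1.04 ± 0.12 (2.06-fold lower in H1299) had an adjusted p of 5.41e-04.

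Among the lung epithelial products, NAPSA read 4.31, 4.71, 4.72 and 4.35 in H1299 and 6.003, 5.48, 5.22 and 5.40 in H2009. All H2009 arrays were above all H1299 arrays, by a gap of 0.49. NAPSA was 2.01-fold lower in H1299 (-1.003 ± 0.16, adjusted p = 0.00272). In H1299 its probe set was about as dim as that of HOPX (27.9th and 26.9th brightness percentile). Detection was not tested, so the fold is one of signal. SFTPB read 4.23, 4.37, 4.25 and 4.01 in H1299 and 3.94, 4.07, 4.06 and 4.25 in H2009. Its lines overlapped, the difference was 0.13 ± 0.10 (95% interval -0.11 to 0.37, adjusted p = 0.387), and its probe set was at the 23.7th brightness percentile in H1299 and the 21.3rd in H2009. HOPX read 4.38, 4.48, 4.42 and 4.49 in H1299 and 4.44, 4.43, 4.51 and 4.58 in H2009. The HOPX difference of -0.05 ± 0.08 had a 95% interval of -0.24 to 0.14 (adjusted p = 0.722). For SFTPB and HOPX the probe set was dim in every culture, and detection was not tested, so a low transcript level and none cannot be told apart.

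The line comparison was also made within each kind of hairpin. Under control hairpins the same 7 members passed the threshold, beside 24.8% of all genes. Under PTK7 hairpins NKX2-1, FOXA1, SOX2 and SOX9 passed, 4 members, beside 24.5% of all genes. NAPSA (adjusted p = 0.0503), FOXA2 (0.113) and GATA6 (0.342) did not pass there in limma. SOX2 differed between the lines by -3.46 ± 0.35 (10.97-fold) under control hairpins and by -1.60 ± 0.35 (3.04-fold) under PTK7 hairpins. NKX2-1 differed by -2.83 ± 0.32 and -2.29 ± 0.32, and FOXA1 by -2.55 ± 0.20 and -1.88 ± 0.20. GATA6 differed by 0.72 ± 0.13 under control hairpins and by 0.20 ± 0.13 under PTK7 hairpins. The test of the change in each of these differences is the interaction reported below with the knockdown, and it passed for no member.

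Some of these within-hairpin calls were lost when an array was left out. Such a fit leaves a group of 1 array, which is assumed to vary like the other groups, so a lost call reflects fewer arrays as well as the value. Under control hairpins the FOXA2 difference of -0.75 became -0.53 without the GFP array of H1299 (limma adjusted p = 0.199), -0.81 without the GFP array of H2009 (0.129) and -0.69 without the LUC array of H2009 (0.194). The NAPSA difference of -1.23 became -1.03 without the GFP array of H1299 (0.057) and -0.97 without that of H2009 (0.061). The GATA6 difference of 0.72 became 0.67 without the LUC array of H2009 (0.0635). Under PTK7 hairpins SOX2 was lost without the PTK7-1 array of H1299 (-1.47, adjusted p = 0.0558) or of H2009 (-1.25, 0.0759).

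**Figure D2:**
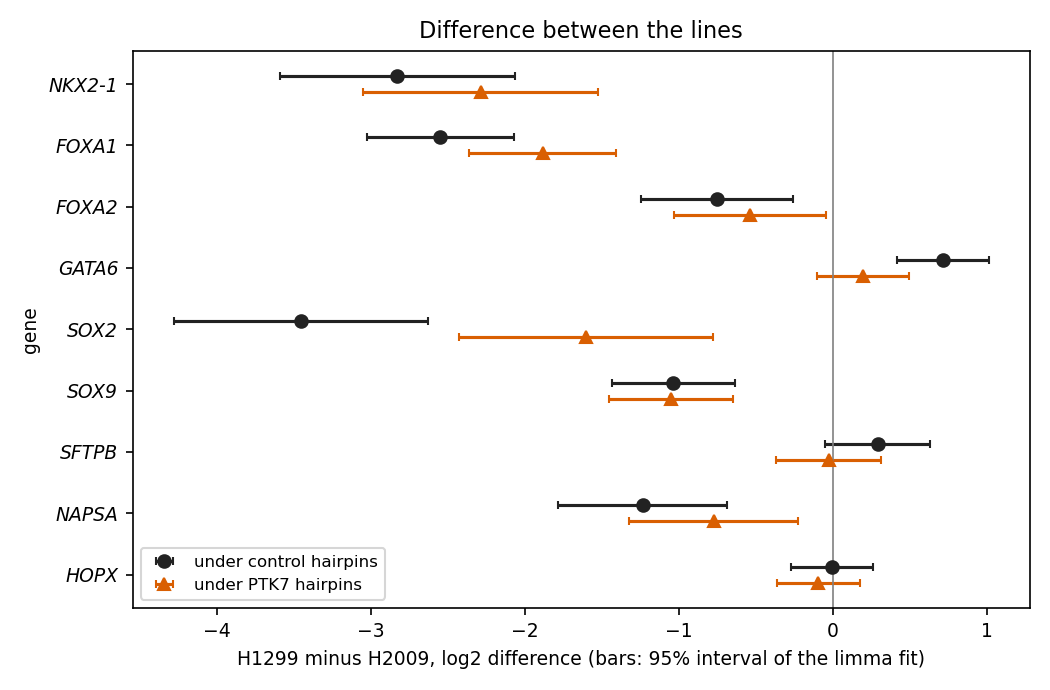
Log2 difference of H1299 minus H2009 (x axis) for each gene (y axis) under control hairpins (circles) and PTK7 hairpins (triangles), 2 arrays per line in each, with the 95% interval of the limma fit. SOX2 moves from -3.46 to -1.60 and GATA6 from 0.72 to 0.20, while SOX9 stays near -1.03 to -1.05.

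Knockdown of PTK7 was compared with the control hairpins next. No member passed the threshold, averaged over the lines, in H1299 or in H2009. Of all genes, 0% passed in the averaged comparison, 0.00543% (1 gene) in H1299 and 0% in H2009 with limma. At an unadjusted limma p below 0.05 these comparisons held 1819, 1376 and 1468 of the 18404 genes, and 2, 0 and 2 of the members.

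SOX2 carried the largest knockdown difference of the members. In H2009 both PTK7 arrays (6.81 and 6.09) lay below both control arrays (7.96 and 8.92), so the groups did not overlap, although the controls themselves stood at -0.48 and 0.48 from their mean. The difference was -1.99 ± 0.35 (3.97-fold, 25.2% of the control level left), with an unadjusted p of 7.07e-04 in limma and an adjusted p of 0.222. By size it was the 4th most negative of 18404 genes in that line, and by p it ranked 57th. A rank by size favours genes with a wide spread. In GFP against LUC over both lines, SOX2 was the 78th most negative by size. The SOX2 array of PTK7-1 lay at -1.63 from the H2009 control mean and that of PTK7-2 at -2.34, whereas PTK7 itself was lower with PTK7-1 (-1.11) than with PTK7-2 (-0.81). Without single arrays of H2009 the SOX2 difference ranged from -2.47 to -1.51. In H1299, where SOX2 was already dim, the difference was -0.14 ± 0.35, with the groups overlapping.

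NKX2-1 in H2009 was lower with PTK7-1 (7.70) and with PTK7-2 (6.89) than with either control, a difference of -0.83 ± 0.32 that did not pass (limma adjusted p = 0.596). PTK7-2 lay at -1.24 from the control mean and PTK7-1 at -0.43. In H1299, where the NKX2-1 signal was low, its groups overlapped, with a difference of -0.29 ± 0.32.

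FOXA1 in H2009 lay at -0.32 from the control mean with PTK7-1 and at -0.58 with PTK7-2, below control arrays that both read 8.79. Its difference of -0.45 ± 0.20 had a limma adjusted p of 0.646. FOXA2 (-0.32 ± 0.21) and NAPSA (-0.43 ± 0.23) also had both H2009 PTK7 arrays below both controls without passing. In H1299 the groups overlapped for FOXA1 (0.21 ± 0.20), FOXA2 (-0.11 ± 0.21) and NAPSA (0.03 ± 0.23).

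In all, 5 members had both PTK7 arrays below both control arrays in H2009, a pattern that 18.9% of all genes showed. GATA6 and HOPX had both PTK7 arrays above, as did 26% of all genes, and SOX9 and SFTPB overlapped. In H1299 GATA6 had both PTK7 arrays below both controls, as did 16.1% of all genes, and the other 8 members overlapped. The median knockdown difference of the members was -0.32 in H2009, against 0.03 for all genes, and -0.11 in H1299, against -0.0026 for all genes.

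GATA6 was the member whose arrays separated in both lines, in opposite directions, as did those of 5.66% of all genes. PTK7-1 and PTK7-2 lay at -0.31 and -0.20 from the control mean in H1299 and at 0.37 and 0.15 in H2009. The difference between the lines in the effect of knockdown (interaction, H1299 minus H2009) was -0.52 ± 0.18, with an unadjusted p of 0.0226 and an adjusted p of 0.911 in limma. For SOX2 the interaction was 1.85 ± 0.49 (unadjusted p = 0.00704, adjusted p = 0.855). Interactions passed for 0% of all genes, with 951 genes and 2 members at an unadjusted p below 0.05, so a different response of the lines was not shown for any member.

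SOX9, SFTPB and HOPX had knockdown differences between -0.17 and 0.15 in each line. The 95% intervals in H2009 were -0.33 to 0.48 for SOX9, -0.19 to 0.49 for SFTPB and -0.16 to 0.38 for HOPX. These intervals bound the change at this number of arrays and do not show that the genes stayed the same.

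**Figure D3:**
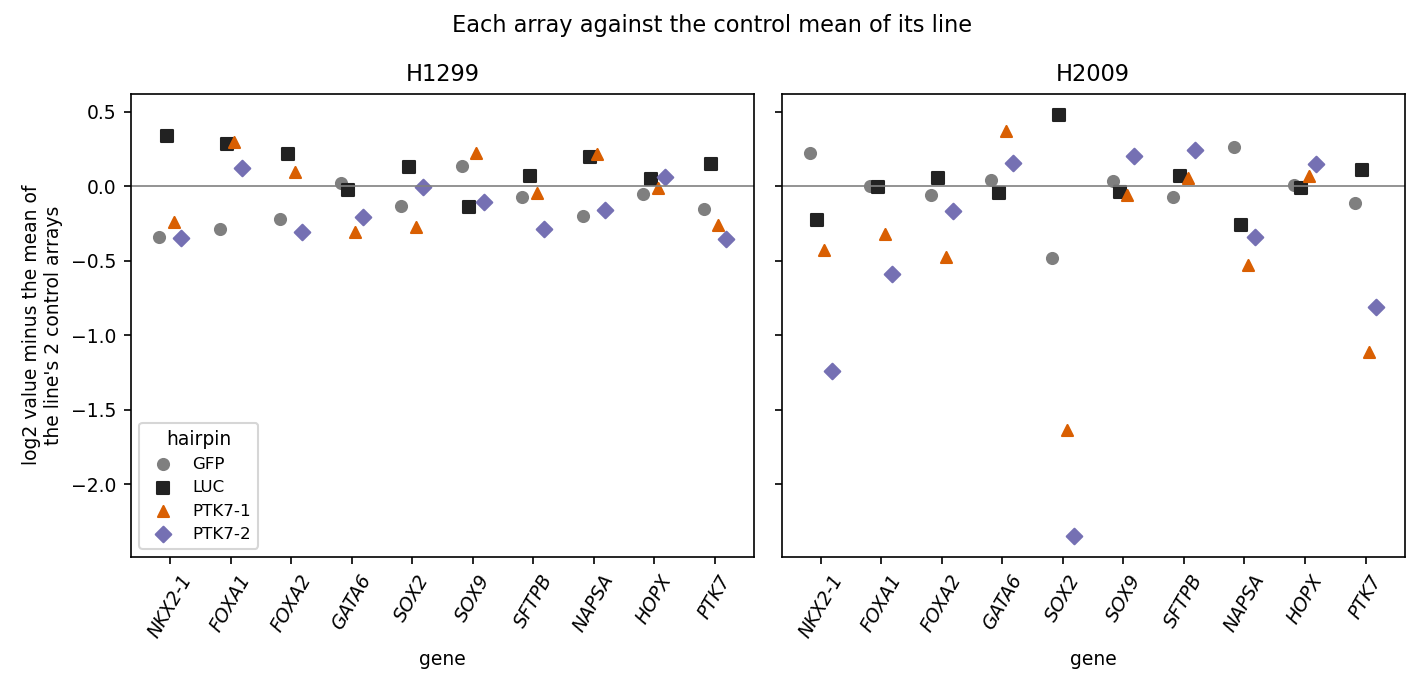
Log2 value of each array minus the mean of the 2 control arrays of its line (y axis) for each gene and for PTK7 (x axis), in H1299 and H2009, with the hairpin as symbol. In H2009 SOX2 lies at -1.63 with PTK7-1 and -2.34 with PTK7-2 and its control arrays at -0.48 and 0.48, while all H1299 points lie between -0.35 and 0.34.

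Since the lines received identical hairpins, a further fit treated the hairpin as a block. That pairing holds for the line comparison and the interaction. In the averaged line comparison the block fit called the same 7 members and 7770 of 18404 genes, against 6659 genes without the block. There the SE of SOX2 was 0.19 with the block and 0.25 without it. The limma adjusted p of GATA6 was 0.0096 with the block and 0.0062 without it. The line differences given above are those of the fit without the block. No hairpin occurs in both the PTK7 and the control groups. In the knockdown comparison the block therefore only takes differences between hairpins of a kind out of the spread. Its knockdown p-values leave out variation between hairpins and speak only of these hairpins. The block fit called 149 genes (0.81%) in the averaged knockdown comparison and no member. SOX2 averaged over the lines had a difference of -1.06 ± 0.25 with an adjusted p of 0.238 without the block and 0.0648 with it, and in H2009 it had 0.222 and 0.0893 (limma).

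The hairpins of a kind were compared with each other over both lines. PTK7-1 against PTK7-2 passed for 3.73% of all genes and for no member, with 686 genes called. NKX2-1 had the lowest adjusted p of the members there (0.46 ± 0.30, adjusted p = 0.527, limma). SOX2 differed by 0.22 ± 0.54 between the PTK7 hairpins, with a 95% interval of -1.03 to 1.47. GFP against LUC passed for 0% of all genes (limma), with 672 genes and no member at an unadjusted p below 0.05. SOX2 again had the widest interval among the members, -1.86 to 0.63 around -0.61.

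Other genes of the lung epithelium were read from the same averaged line comparison, from lists of which up to 4 genes per list are named by the smallest p. Each count of a list stands against the 36.2% of all genes called in that comparison, 19.6% higher and 16.6% lower in H1299, and a share near these is no result about the list. Of 21 other lung epithelial transcription factor genes, 9 were higher and 7 lower in H1299, with a median of 0.02 against 0.03 for all genes. The epithelial grainyhead and ETS factor genes GRHL2 (-4.40 ± 0.10), EHF (-6.18 ± 0.16) and ELF3 (-3.63 ± 0.19) were lower in H1299, as was the forkhead gene FOXP1 (-1.61 ± 0.13). The ETS factor genes ETV4 (2.20) and ETV5 (1.08) and the forkhead gene FOXP2 (1.60), the 3 largest of the 9 that were higher and named after their values were seen, ran the other way. No gene of this list passed in the averaged knockdown comparison, where ETV4 had the smallest p (0.88 ± 0.23, limma adjusted p = 0.278).

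Of 14 alveolar type 2 genes, 3 were higher in H1299 and 3 lower. The lipid transporter gene ABCA3 (2.01 ± 0.13), the lamellar body gene LAMP3 (1.80 ± 0.20) and the kinase gene LRRK2 (3.34 ± 0.12) were higher in H1299. The phospholipid enzyme gene LPCAT1 (-2.99 ± 0.08) was lower. The mucin gene MUC1 (-2.59) and the phosphate transporter gene SLC34A2 (-0.92) were also lower in H1299, both named after their values were seen. SFTPC (0.09) and SFTPD (0.09), the other surfactant protein genes with a value and named here after their values were seen, did not pass. Of 8 genes reported as NKX2-1 targets, ABCA3 and LAMP3 were higher in H1299, and ROR1 (-2.16 ± 0.27), a receptor kinase gene, and MYBPH (-1.19 ± 0.19), a myosin binding protein gene, were lower. The part of NKX2-1 in the levels of these genes was not tested. In H1299 LAMP3 read 7.80 and 6.87 under the controls and 5.92 and 6.24 under the PTK7 hairpins, without passing.

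Of 13 alveolar type 1 genes, 5 were lower in H1299 and 0 higher, namely EMP2 (-2.08 ± 0.09), SEMA3B (-1.32 ± 0.12), ANXA3 (-3.96 ± 0.40), GPRC5A (-0.37 ± 0.10) and, named after its value was seen, RTKN2 (-0.52). Of 15 airway secretory and ciliated genes, 2 were lower, AGR2 (-4.02 ± 0.23), a secretory cell protein disulfide isomerase, and CAPS (-1.24 ± 0.13). Of 9 basal and squamous genes, 4 were lower, namely SERPINB5 (-5.47 ± 0.14), KRT15 (-1.04 ± 0.21), TRIM29 (-0.75 ± 0.09) and PKP1 (-0.39 ± 0.10). None of 14 gut and liver lineage genes passed in either direction, with a median of -0.01, and the smallest p was that of HNF4G (-0.31 ± 0.16, limma adjusted p = 0.19).

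Relatives of the member families were read in the same way. Of 17 other SOX genes, 4 were lower in H1299, namely SOX30 (-2.01 ± 0.16), SOX4 (-0.90 ± 0.10), SOX21 (-1.51 ± 0.22) and SOX15 (-1.37 ± 0.23), and SOX5, named after its value was seen, was higher (0.42). Of 6 other GATA and FOXA genes, GATA3 was lower (-0.65 ± 0.18) and the other 5 did not pass. Of 10 neuroendocrine genes, 4 were higher in H1299, namely DLL3 (0.97 ± 0.09), UCHL1 (1.36 ± 0.17), CHGB (0.86 ± 0.15) and, named after its value was seen, POU3F2 (0.59), and POU2F3 was lower (-0.70 ± 0.10).

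Markers of cell state differed together with the members. Of 12 epithelial markers, 11 were lower in H1299, with a median of -5.71 (log2). EPCAM (-7.78 ± 0.09) and CDH1 (-7.26 ± 0.09), which join epithelial cells, were the most changed by p, and their control means in H1299 were 3.39 and 4.06. The mean of the 12 epithelial markers was 5.35 to 5.62 on the H1299 arrays and 10.44 to 10.63 on the H2009 arrays. EPCAM and CDH1 were at dim signal in H1299. The keratin gene KRT8 was lower in H1299 (-1.89) but bright there, with group means of 9.32 (control) and 10.03 (PTK7). KRT18, named after its value was seen, did not pass (-0.20, limma adjusted p = 0.554). Of 10 mesenchymal markers, 5 were higher in H1299, namely the repressors of epithelial genes ZEB1 (3.40 ± 0.13) and ZEB2 (3.51 ± 0.20), CDH2 (2.72 ± 0.15), VIM (2.27) and TWIST1 (0.40). The other 4 that passed were lower, namely FN1 (-3.16 ± 0.15), SNAI2 (-5.28), SPARC (-2.96) and SNAI1 (-1.27). VIM, TWIST1, SNAI2, SPARC and SNAI1 were named after their values were seen. The part of this difference in cell state in the levels of the lung lineage genes was not tested.

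Markers of cells that a culture of these lines should lack were dim on the mean of each list, with exceptions among their genes. The mean of 10 leukocyte markers was 4.51 to 4.68 in H1299 and 4.26 to 4.56 in H2009, of 11 fibroblast markers 4.17 to 4.24 and 4.11 to 4.21, and of 10 endothelial markers 3.90 to 4.06 and 3.96 to 4.10. CD68, a lysosomal protein gene listed as a leukocyte marker, was bright, with group means of 10.27 (control) and 9.83 (PTK7) in H1299 and 7.99 and 8.19 in H2009. It was higher in H1299 (1.95 ± 0.22, limma adjusted p = 4.45e-04), as was ITGAM (0.71 ± 0.11), while CSF1R was lower (-0.43 ± 0.11). Of the fibroblast markers COL1A1 was lower in H1299 (-0.68 ± 0.10), from a control mean of 6.24 there, and ACTA2 was higher (0.99 ± 0.14). Of the endothelial markers ESAM was lower (-0.32 ± 0.10). The part of other cell types in the levels of the lung lineage genes was not tested. In the averaged knockdown comparison no gene of any of the 15 lists passed in limma.

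**Figure D4:**
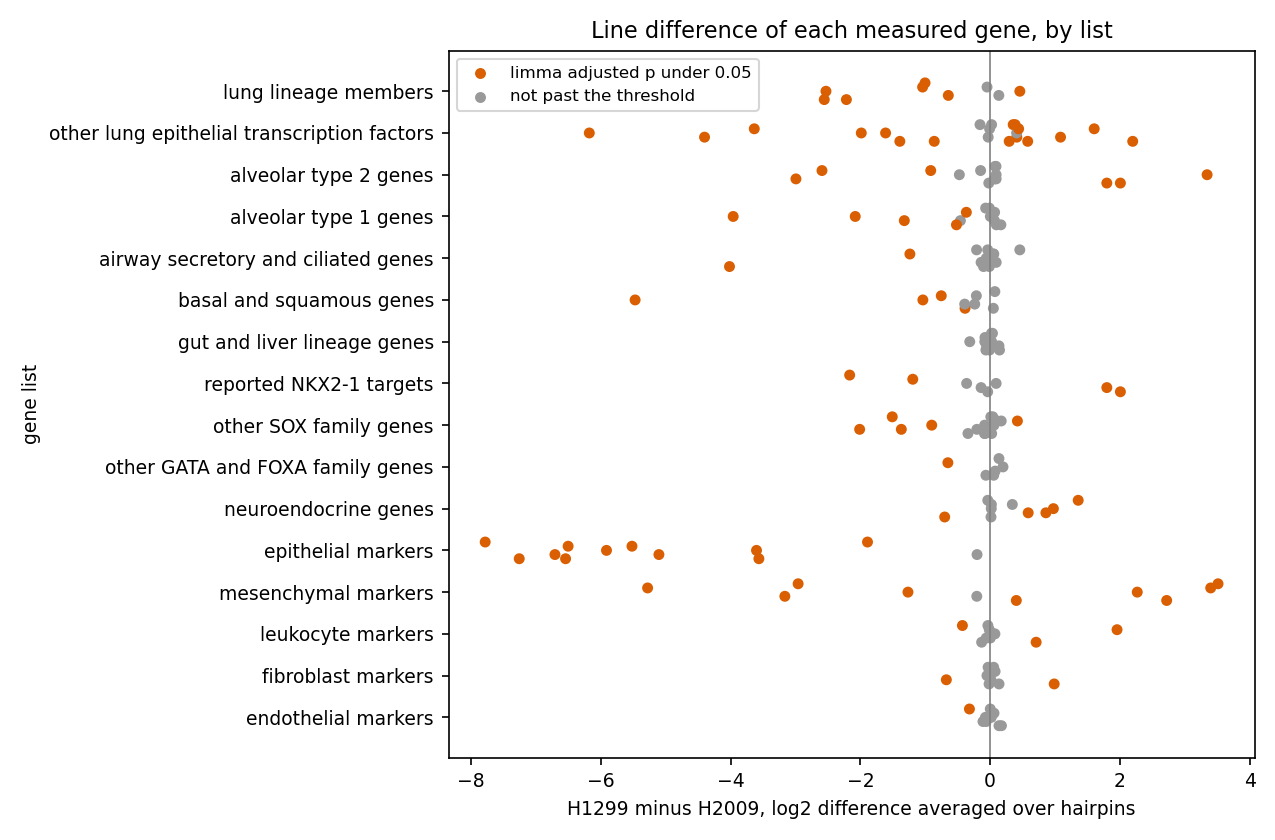
Averaged log2 difference of H1299 minus H2009 (x axis) of every measured gene in each list (y axis; 1 point per gene, offset upward or downward only for legibility), coloured by whether the limma adjusted p was below 0.05. Epithelial markers lie farthest to the left, with a median of -5.71, while gut and liver genes lie near 0 and alveolar type 2 genes fall on both sides.

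The genes with the most similar pattern were sought by Pearson r with each member over the 8 arrays, as a description. Since 36.2% of genes differ between the lines, r was also taken after the mean of each line was removed. That value, called within lines below, pools the 8 arrays and was not taken in each line alone. For SOX2 it rests mostly on H2009, where the SD was 1.25 against 0.17 in H1299. TRPV4, a cation channel gene, followed SOX2 at r = 0.998 and at 0.997 within lines, and TNFSF10, which encodes the death ligand TRAIL, at 0.993 and 0.982. NKX2-1 was followed by the linker histone gene H1-3 (0.992, and 0.919 within lines) and TMEM51-AS1 (0.992 and 0.922). FOXA1 was followed by the kinase gene RIPK4 (0.997 and 0.948) and TMEM47 (0.996 and 0.913).

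For GATA6 the nearest genes were PSPH (0.974, and 0.909 within lines) and MAP7D3 (0.967 and 0.909), for FOXA2 KLHDC9 (0.981 and 0.976) and RAB26 (0.975 and 0.923), and for SOX9 SLC22A15 (0.994 and 0.886) and CYBA (0.993 and 0.88). NAPSA was followed by ZNF311 (0.982 and 0.908) and SVEP1 (0.979 and 0.904). For SFTPB (TREML4, 0.988) and HOPX (RABEP2, 0.954) the probe sets were dim and the ranges small. These are the highest of 18404 correlations over 8 arrays that share hairpins and lines.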

How the data were processed

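Each deposited value is the log2 signal of a probe set. The authors used RMA (background correction, normalization between arrays and summary of probes), and R 2.14.0 is named, both per the submitters' processing notes. The annotation build was not given in the sources used here. Of 32321 probe sets, 19158 had a single gene symbol, 1388 several, and 11775 were not listed. The brightest probe set was kept per gene. A limma fit (3.58.1, R 4.3.3) over all 8 arrays gave each group a mean, with moderated variances (eBayes) and Benjamini-Hochberg adjusted p-values over 18404 genes. Hairpins of a kind were compared in a fit of hairpin and line. The fits were tested on simulated data with noise drawn independently for each array. That setting leaves out deviations that a hairpin shares between the lines, so it does not check the p-values for them. The members, lists and tests were chosen with earlier results of these data known. Text names all members, PTK7, up to 4 genes per list by p in the line comparison and up to 2 in the knockdown comparison. It also names the 2 most similar genes per member, but only the most similar gene for SFTPB and for HOPX. Other genes are marked as named after their values were seen. The labels name the same hairpins in both lines, and deviations from group means correlated between lines at 0.23 (control hairpins) and 0.407 (PTK7 hairpins). No batch is given in the labels. The number of arrays limits the precision. Alternatives changed probe set choice, normalization, filter, prior, block and arrays.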

Additional observations from a re-analysis of the deposited data

Results flagged for a closer look

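The members and the list genes picked by p made up 77 genes. Of these, 7 had PTK7 arrays on opposite sides of the controls in the 2 lines, a pattern of 5.66% of all genes. The interaction (effect of knockdown in H1299 minus that in H2009, log2) was tested for each with limma, and none passed, with adjusted p-values from 0.848 to 0.922, and from 0.384 to 0.691 with the hairpin as a block. It was -0.52 for the member GATA6, and among the genes of the other lists 0.71 for LRRK2, -1.64 for LAMP3, 0.46 for EMP2, -0.77 for SERPINB5, -0.37 for TRIM29 and -0.57 for RAB25. SERPINB5 and RAB25 were dim in H1299 (3.22 to 3.62 and 3.63 to 4.16), and LRRK2 was dim in H2009 (3.28 to 3.63).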

How the results depend on the processing

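No member difference that passed changed its sign, and no member passed in a knockdown or hairpin comparison under any alternative run. Of 1359 alternative values of single members, 1289 kept direction and side of the threshold, and 9 lost and 3 gained a call. The other 58 changed sign, all for differences that did not pass, such as FOXA2 for knockdown in H1299 (-0.32 to 0.11). NAPSA under PTK7 hairpins passed with cyclic loess (adjusted p = 0.0439), with a trended prior (0.0401) and without the PTK7-1 array of H1299 (0.0453). Leaving out single arrays gave 6 to 7 members for the averaged line comparison, 5 to 7 under control hairpins and 3 to 4 under PTK7 hairpins. With the hairpin as a block, 149 genes passed for the averaged knockdown, 4 for knockdown in H1299 and 1 for the interaction. The knockdown counts of that fit leave out the spread between hairpins of a kind. For knockdown in H1299, where 1 gene passed, the count was 0 with cyclic loess, without the dimmest 40% of genes and in a fit of H1299 alone, and 0 to 8 without single arrays. For the averaged knockdown, where 0 passed, it was 3 with a trended prior, 2 in a fit without the interaction, and 0 to 5 without single arrays. For the interaction it was 1 with a trended prior and 0 to 3 without single arrays. The 4566 genes of the line comparison under control hairpins became 2196 to 5298, lowest without the LUC array of H2009, and the 686 genes of PTK7-1 against PTK7-2 became 0 to 943, with 0 without the PTK7-1 array of H1299. The filter on dim genes dropped FOXA2, SFTPB, NAPSA and HOPX, which have no value there. The cause of these changes was not tested. Detection above background was not tested for any probe set, these 4 dim ones included.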
